A study of Mus musculus with 7 samples.

Results

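The DNA replication and S-phase genes are 44 mouse genes that were chosen by name for their roles in copying DNA, and each was read from the row of the deposited expression table that carries its symbol. All 44 were found, each on 1 row of the 49382 genes in the table. Of these, 43 averaged 2 TPM or more across the 7 libraries and were counted among the 12909 genes that passed this filter, whereas E2f2 stayed below it. TPM gives the share of a library that a transcript makes up after division by its length, summed to 1000000 over all transcripts, so levels of different genes can be set side by side.

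The study asked how conditions in the surroundings of fibroblasts, such as crowding and stress, affect their expression of growth factors, and its stress experiment was an RNA-seq of mouse embryonic fibroblasts (MEFs). The cells were wild type, came from minced embryos, of embryonic day 13.5 to 14.4 in the labels and with a slightly later upper limit in the study's methods, after removal of head and red tissue, and were primary cultures of early passages rather than a clone. They were seeded at 10000 cells per square cm in the stress experiment and cultured overnight before the treatment. Each condition was 1 library, so there is no replicate check of any difference below and no test was made. The control library was untreated, and the sources used here do not state how long after the overnight culture it was collected. Glucose depletion and glutamine depletion were 10 h in DMEM without the nutrient. Hypoxia was 10 h at 0.1% oxygen. ER stress was 10 h in 1 μM thapsigargin, which blocks the calcium pump of the endoplasmic reticulum. Oxidative stress was 3 h in 10 μM sodium arsenite, and osmotic stress was 3 h with 100 mM NaCl. The treatments therefore differ in time as well as in kind.

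Chromosome replication starts with licensing, in which the origin recognition complex, Cdc6 and Cdt1 load the ring-shaped MCM2-7 helicase onto DNA in G1. In S phase Cdc45 and the GINS complex join the ring to form the active helicase, RPA covers the single strands, and polymerases held by the sliding clamp PCNA copy them, while ribonucleotide reductase and thymidine enzymes supply the nucleotides. E2F transcription factors drive many of these genes at the passage from G1 into S phase, and proliferating fibroblasts in culture express the set as a whole.

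TPM carry no depth, so the depth of these libraries is unknown and counting error could not be computed. Between 19819 and 21154 genes were above 0 TPM in a library. All 12 fibroblast markers passed the filter, with summed levels from 8987 TPM in ER stress to 16775 TPM in hypoxia and 14547 TPM in the control. Summed markers of macrophages and blood cells reached 16.9 TPM, those of endothelial cells 7.31 TPM, those of epithelial cells 2.46 TPM, those of erythroid cells 0.944 TPM and those of skeletal muscle cells 0.26 TPM in any library. Of the neural markers, Tubb3 ranged from 23.4 TPM in osmotic stress to 126.7 TPM in ER stress, while Sox10 and Elavl3 were under 1 TPM in every library. In bulk RNA, fewer cells in S phase and less RNA of these genes per cell cannot be told apart.

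Promoter windows from RefSeq on GRCm38.p6, 250 bases before to 50 bases after a start site, were at hand for 37 of the 44 members. They were searched on both strands for an E2F site, written as TTTCCCGC, TTTGGCGC, TTTCGCGC or TTTGCCGC. Such letters were in 34.9% of the 43 windows of members, in 3.97% of the 11608 windows of all genes that passed the filter and in 2.265% of all 32851 windows. The 15 members with a match were Cdc6, Cdt1, E2f2, Gins3, Lig1, Mcm3, Mcm5, Mcm6, Mcm7, Orc1, Pola1, Pold1, Pole2, Rfc3 and Uhrf1. The CCAAT box, searched as CCAAT, was in 60.5% of the windows of members, 38.0% of those of all genes that passed the filter and 37.4% of all windows. The cell cycle homology region, searched as TTTGAA, was in 11.6% of the windows of members, close to the 11.9% for all genes that passed the filter, and in 17.9% of all windows. A match is a description of the letters and not a measured binding site.

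In 5 members a match lay before the RefSeq start site and outside every annotated exon, and these stretches are printed 5′ to 3′ on the strand of the gene, with the matched bases in capitals. All 5 are printed. These genes take part in licensing (Cdc6), unwinding (Mcm5, Mcm6), synthesis (Pola1) and the handling of new chromatin (Uhrf1). The stretches are chr11:98907983-98908050 on the plus strand for Cdc6, chr8:75109326-75109397 on the plus strand for Mcm5, chr1:128359715-128359845 on the minus strand for Mcm6, chrX:93632256-93632323 on the minus strand for Pola1 and chr17:56304098-56304165 on the plus strand for Uhrf1. The gene annotation (GENCODE M21) places the starts of Cdc6 and Uhrf1 earlier, at 98907801 and 56303321. The stretches of Cdc6 and Uhrf1 thus lie inside the annotated gene, between exons. In Mcm5 and in the first block of Mcm6, 2 matches on opposite strands overlap.
Cdc6: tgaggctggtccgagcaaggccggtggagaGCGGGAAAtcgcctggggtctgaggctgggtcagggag
Mcm5: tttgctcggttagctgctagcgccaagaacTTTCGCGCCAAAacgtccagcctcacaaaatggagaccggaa
Mcm6: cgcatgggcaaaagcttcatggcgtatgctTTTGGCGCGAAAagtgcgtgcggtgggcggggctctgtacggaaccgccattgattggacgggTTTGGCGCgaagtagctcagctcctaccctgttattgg
Pola1: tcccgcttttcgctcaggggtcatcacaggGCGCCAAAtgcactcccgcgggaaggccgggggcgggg
Uhrf1: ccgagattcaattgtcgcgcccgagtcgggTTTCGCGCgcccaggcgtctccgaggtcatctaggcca

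Genes that share these letters did not have 1 common level or 1 common change. In ER stress, Cdc6 was 21.02 TPM against 10.4 TPM in the control, while Mcm6 was 27.5 TPM against 56.3 TPM and Pola1 was 8.64 TPM against 8.45 TPM. Over the 14 members with a match that passed the filter, the median log2 change in ER stress was -0.48, and over the 22 members with a window but no match it was -0.61. Members with a match also had the higher median in glucose depletion (0.22 and -0.0046), oxidative stress (-0.42 and -0.54) and hypoxia (-0.35 and -0.48). They had the lower one in glutamine depletion (-0.50 and -0.41) and osmotic stress (-0.26 and -0.18).

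Changes were taken as log2(TPM + 1) of a condition minus that of the control library, which understates the change of low genes, and a difference of more than 2-fold on this scale was counted. In ER stress the members were lower than in any other condition, and glucose depletion was the only condition in which most of them were above the control. The summed level of the 44 members was 1761 TPM in the control, 1845 TPM in glucose depletion, 1638 TPM in osmotic stress, 1417 TPM in glutamine depletion, 1377 TPM in oxidative stress, 1342 TPM in hypoxia and 1163 TPM in ER stress, a change of -33.9% against the control in the last. Of the 43 members that passed the filter, 23 or 53.5% had their lowest level of the 7 libraries in ER stress, with 23.8% of all genes lowest there, and 19 or 44.2% had their highest in glucose depletion, with 9.16% of all genes. No member was lowest in the control or in glucose depletion, where 3.85% and 6.30% of all genes were lowest.

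**Figure D1:**
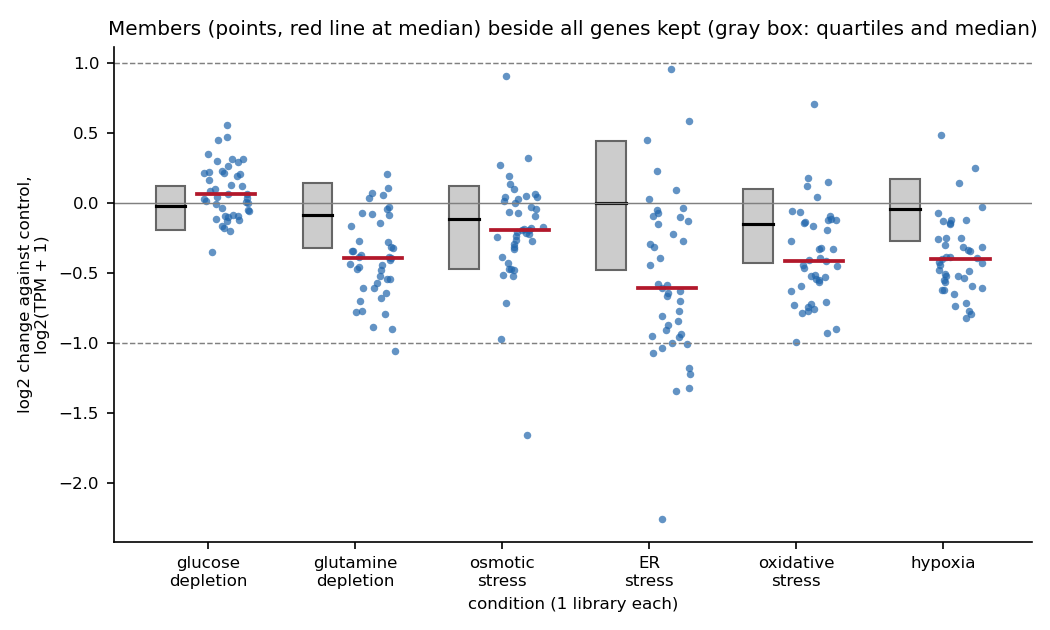
Each blue point is the log2 change of 1 of the 43 members that passed the filter in 1 library of the condition on the x axis, on the log2(TPM + 1) scale against the control library, with a red line at their median and dashed lines at 2-fold. The gray box holds the quartiles and median of the 12909 genes that passed the filter, and the median of the members is farthest below that of all genes in ER stress, at -0.61 against 0.00.

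In ER stress, 9 of the 43 members were lower by more than 2-fold, with 11.0% of all genes lower by that much, and 23 members were lower by more than 1.5-fold, with 21.3% of all genes. None was higher by more than 2-fold, with 8.6% of all genes higher. In total 37 members, 86.0%, were below the control by any amount, with 48.5% of all genes below it. The median log2 change of the members was -0.61 and that of all genes was 0.00. The 9 members were Tk1 (-2.26), Rrm1 (-1.34), Lig1 (-1.32), Chaf1b (-1.23), Rfc5 (-1.18), Chaf1a (-1.07), Rpa1 (-1.04), Mcm6 (-1.01) and Mcm5 (-1.002). They take part in nucleotide supply, ligation, chromatin assembly, clamp loading, single strand binding and unwinding. None of them is among the 4 genes grouped here as licensing factors (Orc1, Orc6, Cdc6 and Cdt1). The 5 Cdc45 and GINS genes, the 7 polymerase and primase genes and E2f1 held none either, so this was not particular to licensing. When 5 TPM was added instead of 1 TPM, 3 members were past 2-fold. The fibroblast markers were lower in the same library, 12 of 12 by some amount and 3 by more than 2-fold, and Tubb3 was 126.7 TPM against 26.0 TPM in the control. Their part in the levels of the members was not tested.

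Glutamine depletion had 38 of 43 members, 88.4%, below the control, with 60.0% of all genes below it, and a median log2 change of -0.40, with -0.09 over all genes. By more than 1.5-fold 11 members were lower, with 10.6% of all genes. Only Pola2, the second subunit of DNA polymerase alpha, was lower by more than 2-fold, with 3.21% of all genes. Its level was 11.4 TPM against 24.9 TPM in the control (log2 change -1.06), and it was no longer past 2-fold with a pseudocount of 5 TPM or after centering on the median of all genes. No member was higher by more than 2-fold, with 3.21% of all genes higher.

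Hypoxia had the greatest number of members below the control, 40 of 43 or 93.0%, with 55.5% of all genes below it, but no member was past 2-fold in either direction. Of all genes, 2.64% were lower and 3.57% higher by that much. By more than 1.5-fold 10 members were lower, with 8.1% of all genes. The median log2 change was -0.40, with -0.05 over all genes. The lowest changes were those of Orc1 (-0.82), Mcm10 (-0.79) and Cdt1 (-0.78), and the 3 members above the control were E2f1 (0.48), Rfc4 (0.24) and Rfc1 (0.14).

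In oxidative stress 38 of 43 members, 88.4%, were below the control, with 66.0% of all genes below it. The median log2 change was -0.42, but the median of all genes was itself at -0.16, and relative to it the members were at -0.26. By more than 1.5-fold 12 members were lower, with 16.2% of all genes. No member was past 2-fold, with 4.85% of all genes lower and 3.94% higher. The lowest changes were those of Pola2 (-0.99), Uhrf1 (-0.93) and Chaf1a (-0.90), and the highest were those of Cdt1 (0.71), Orc6 (0.175) and Pole (0.15).

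In osmotic stress the members were close to the other genes. The median log2 change was -0.19, with -0.12 over all genes, or -0.07 relative to that median. Of 43 members, 31 or 72.1% were below the control, with 61.6% of all genes, and 3 were lower by more than 1.5-fold, with 19.5% of all genes. Gins3, a GINS subunit, was the only member lower by more than 2-fold (-1.66), with 8.76% of all genes lower. No member was higher by more than 2-fold, with 3.08% of all genes higher, and Rfc5 was closest at 0.90. Centered on the median of all genes, Rfc5 was past 2-fold.

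Glucose depletion was the condition nearest to the control. There 16 of 43 members, 37.2%, were below the control and 27 were above it, with 53.7% of all genes below it. The median log2 change was 0.06, with -0.02 over all genes. No member was past 2-fold or lower by more than 1.5-fold. Of all genes, 2.41% were lower and 1.83% higher by more than 2-fold, and 6.23% were lower by more than 1.5-fold. The highest changes were those of Orc1 (0.55), Pole (0.47) and Gins1 (0.45), and the lowest were those of Rfc2 (-0.35), E2f1 (-0.20) and Gins4 (-0.18).

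**Figure D2:**
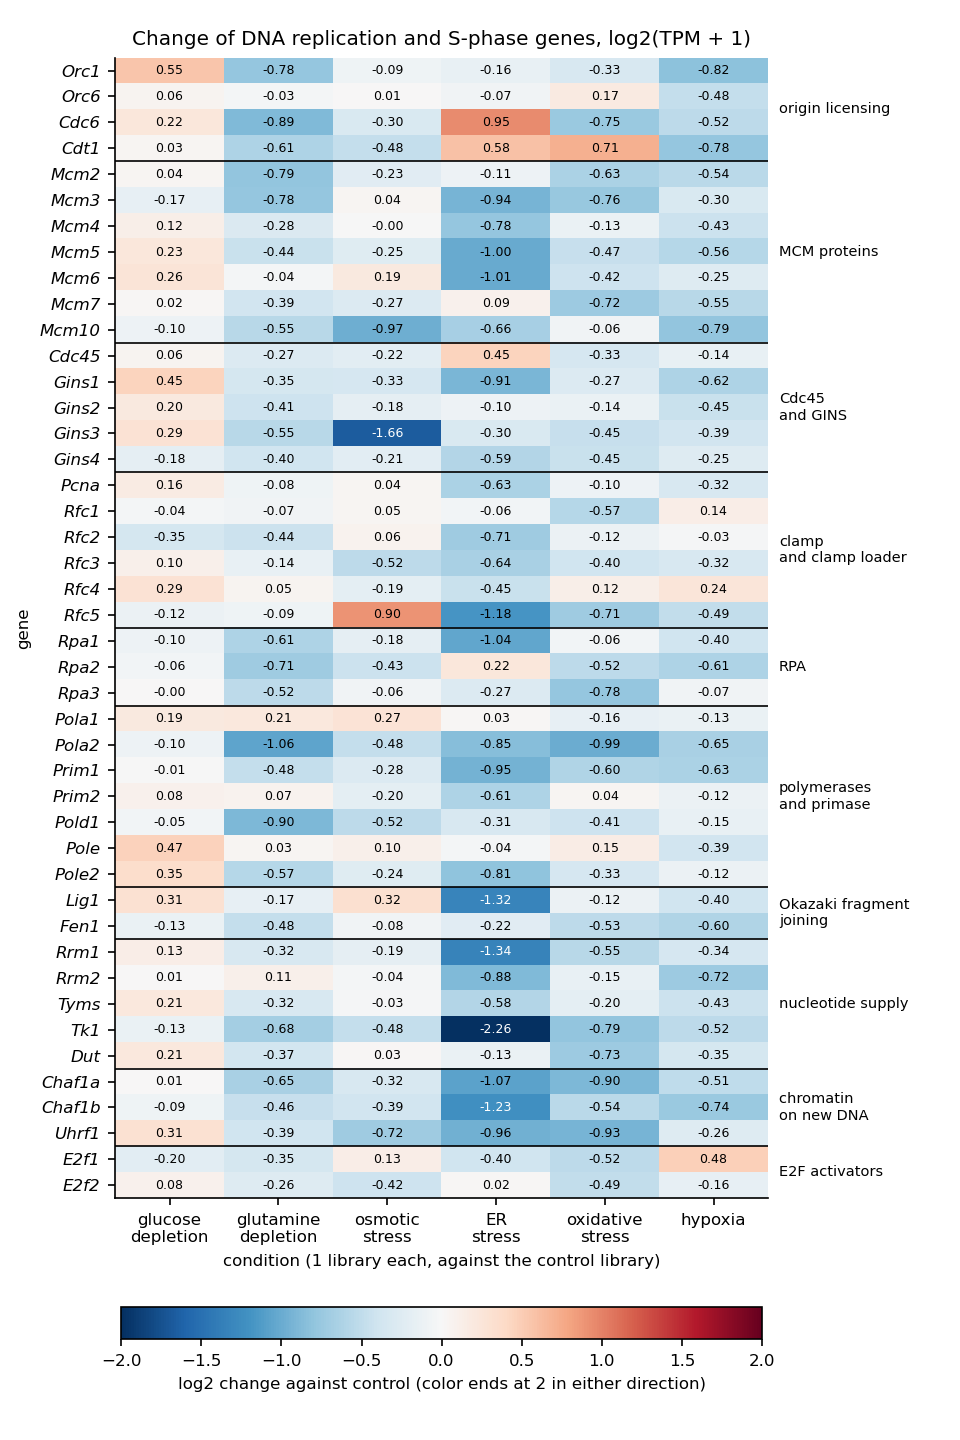
Rows are the 44 members ordered by role and columns are the 6 conditions, and each cell is the log2 change on the log2(TPM + 1) scale of 1 library against the control library, blue where lower and red where higher. The ER stress column holds the deepest blue, at Tk1 with -2.26, beside red cells for the licensing factors Cdc6 with 0.95 and Cdt1 with 0.58.

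In ER stress the median log2 change was 0.25 over the 4 licensing factors and -0.78 over the 7 MCM proteins. Of the licensing factors, Cdc6 (0.95) and Cdt1 (0.58) were above the control, and Orc1 (-0.16) and Orc6 (-0.07) were below it. Cdc6, the ATPase that recruits the helicase together with Cdt1, had the widest range of the group. It was 10.4 TPM in the control, 12.3 in glucose depletion, 5.16 in glutamine depletion, 8.28 in osmotic stress, 21.02 in ER stress, 5.79 in oxidative stress and 6.94 TPM in hypoxia. The ER stress library alone was well above the others. Its log2 change there was 0.95, short of 2-fold on the log2(TPM + 1) scale, and past it with a pseudocount of 0.1 TPM.

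Cdt1, the partner of Cdc6 in loading, was 16.3 TPM in the control, 16.7 in glucose depletion, 10.3 in glutamine depletion, 11.4 in osmotic stress, 24.8 in ER stress, 27.2 in oxidative stress and 9.07 TPM in hypoxia. It was thus high in ER stress and oxidative stress, and low in hypoxia, glutamine depletion and osmotic stress. Geminin (Gmnn), the inhibitor of Cdt1, was 22.4 TPM in the control, 17.5 TPM in ER stress and 17.3 TPM in oxidative stress. The ratio of Cdt1 to Gmnn was 0.727 in the control, 1.42 in ER stress and 1.57 in oxidative stress, and 0.4395 to 0.613 in the other conditions. Orc1, the ATPase subunit of the origin recognition complex that varies with the cell cycle, ranged from 4.02 TPM in hypoxia to 12.0 TPM in glucose depletion, with 7.88 TPM in the control. Orc6, another subunit of that complex, ranged from 33.6 TPM in hypoxia to 53.5 TPM in oxidative stress. In hypoxia and in glutamine depletion all 4 licensing factors were below the control, with medians of -0.65 and -0.69.

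The RNA levels of the 6 subunits of the MCM2-7 ring were close to each other in the control and not in ER stress. The proteins assemble in equal numbers, but protein was not measured here. In the control they lay between 44.3 TPM (Mcm5) and 63.2 TPM (Mcm7), a ratio of 1.43. In ER stress Mcm2 and Mcm7 were 46.8 and 67.2 TPM, while Mcm3, Mcm4, Mcm5 and Mcm6 were 26.5, 26.5, 21.6 and 27.5 TPM. The ratio of the highest to the lowest subunit there was 3.11, and in the other 5 conditions it was 1.40 to 1.90. The summed level of the ring was 312 TPM in the control, 216 TPM in ER stress and 216 TPM in oxidative stress, so a like sum was made up evenly in oxidative stress, with a ratio of 1.40, and unevenly in ER stress.

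Mcm2, a marker of replicating cells, was 50.5 TPM in the control, 52.0 in glucose depletion, 28.7 in glutamine depletion, 43.0 in osmotic stress, 46.8 in ER stress, 32.1 in oxidative stress and 34.3 TPM in hypoxia. It was lowest in glutamine depletion, with a log2 change of -0.79, and its change in ER stress was -0.11. Mcm6, which had the widest range in the group, was 56.3 TPM in the control, 67.6 in glucose depletion, 54.6 in glutamine depletion, 64.3 in osmotic stress, 27.5 in ER stress, 41.9 in oxidative stress and 47.2 TPM in hypoxia. Mcm2 was also low in oxidative stress (-0.63) and hypoxia (-0.54), while Mcm6 was lowest in ER stress. Mcm3 ranged from 26.5 to 53.1 TPM, Mcm4 from 26.5 to 49.97 TPM, Mcm5 from 21.6 to 52.0 TPM and Mcm7 from 37.9 TPM in oxidative stress to 67.2 TPM in ER stress. Mcm10, a replication initiation factor outside the ring, ranged from 6.31 TPM in osmotic stress to 13.4 TPM in the control.

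**Figure D3:**
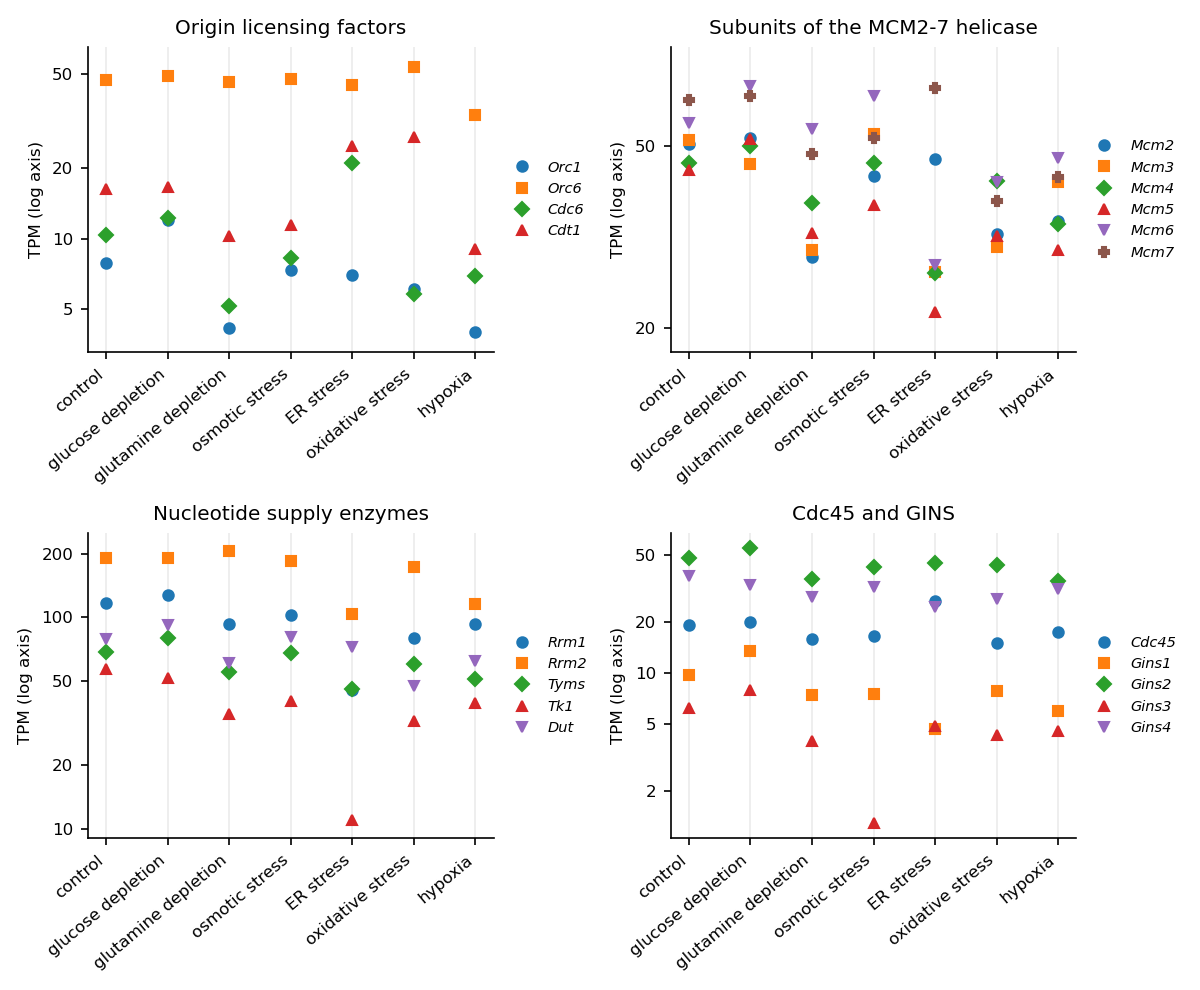
Each symbol is the TPM of 1 gene in 1 library, on a log axis, for licensing factors, MCM2-7 subunits, nucleotide supply enzymes, and Cdc45 with the GINS subunits. The MCM2-7 symbols lie within a ratio of 1.43 in the control and spread to 3.11 in ER stress, where Tk1 is at 11.0 TPM, and Gins3 stands alone at 1.30 TPM in osmotic stress.

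Cdc45 and the 4 GINS subunits, which turn the loaded ring into a moving helicase, also differed among themselves. Cdc45 was highest in ER stress at 26.7 TPM, with 19.3 TPM in the control and 15.1 TPM in oxidative stress as its lowest level. About 5.96% of its exon bases overlap exons of Ufd1 on the other strand. Ufd1 was 50.5 TPM in the control, 61.8 TPM in oxidative stress and 104.6 TPM in ER stress. The part of this overlap in the level of Cdc45 was not tested. Gins3 was 6.25 TPM in the control, 7.89 in glucose depletion, 3.96 in glutamine depletion, 1.30 in osmotic stress, 4.90 in ER stress, 4.29 in oxidative stress and 4.54 TPM in hypoxia. It was low in every library and lowest in osmotic stress, and the call past 2-fold was lost with a pseudocount of 5 TPM. The ratio of the highest to the lowest GINS subunit was 7.64 in the control and 32.4 in osmotic stress. Gins1 ranged from 4.69 TPM in ER stress to 13.6 TPM in glucose depletion, Gins2 from 34.8 to 55.1 TPM and Gins4 from 24.6 to 37.6 TPM.

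Pcna, the sliding clamp and the other marker of replicating cells, was 147 TPM in the control, 164 in glucose depletion, 139 in glutamine depletion, 151 in osmotic stress, 94.4 in ER stress, 137 in oxidative stress and 117 TPM in hypoxia. It was lowest in ER stress, with a log2 change of -0.63, and in glutamine depletion, where Mcm2 was lowest, its change was -0.08. Mcm2 and Pcna therefore gave different orders of the conditions. The pseudogene copies Pcna-ps1 and Pcna-ps2 were listed at 0.712 TPM or less.

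Replication factor C (RFC) opens the clamp and sets it on DNA, and 4 of its 5 subunits had their lowest level in ER stress, the exception being the largest, Rfc1. Rfc5 had the widest range of the group. It was 24.9 TPM in the control, 22.9 in glucose depletion, 23.4 in glutamine depletion, 47.5 in osmotic stress, 10.5 in ER stress, 14.9 in oxidative stress and 17.5 TPM in hypoxia. It was the member highest against the control in osmotic stress and among the 9 past 2-fold in ER stress. About 10.7% of its exon bases overlap exons of Wsb2 on the other strand, which was 194 TPM in the control, 231 TPM in osmotic stress and 128 TPM in ER stress. Kallisto was run at its defaults, which do not use strand, so reads of overlapping genes on opposite strands cannot be told apart where they overlap. Rfc1 ranged from 19.7 TPM in oxidative stress to 32.9 TPM in hypoxia, Rfc2 from 35.5 to 61.2 TPM, Rfc3 from 14.9 to 25.5 TPM and Rfc4 from 10.2 to 17.6 TPM.

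RPA, a trimer that covers single-stranded DNA, had its subunits nearest to each other in ER stress, with a ratio of the highest to the lowest of 1.29 there and 3.17 in the control. Rpa1, the largest subunit, was 74.8 TPM in the control, 69.8 in glucose depletion, 48.6 in glutamine depletion, 66.0 in osmotic stress, 35.9 in ER stress, 71.9 in oxidative stress and 56.6 TPM in hypoxia. Rpa2, the middle subunit, was highest in ER stress at 27.7 TPM, with 23.6 TPM in the control and 14.1 TPM in glutamine depletion. Rpa3, the smallest subunit, ranged from 23.8 TPM in oxidative stress to 41.4 TPM in the control. The 3 subunits thus had their lowest levels in 3 different conditions.

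Among the polymerase and primase genes, the catalytic subunit of polymerase alpha was nearly even across the libraries and its partner was not. Pola1, that catalytic subunit, ranged from 7.43 to 10.4 TPM, the smallest log2 range of all 44 members (0.43). Pola2 was 24.9 TPM in the control, 23.1 in glucose depletion, 11.4 in glutamine depletion, 17.6 in osmotic stress, 13.4 in ER stress, 12.0 in oxidative stress and 15.5 TPM in hypoxia. It was highest in the control, and the libraries of glutamine depletion, oxidative stress and ER stress were the lowest. Prim1, the catalytic primase subunit, ranged from 11.2 TPM in ER stress to 22.6 TPM in the control, and Prim2, the large primase subunit, from 13.6 to 22.6 TPM.

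Pold1, the catalytic subunit of polymerase delta that mainly copies the lagging strand, was lowest in glutamine depletion at 8.72 TPM, with 17.1 TPM in the control. Pole, the catalytic subunit of polymerase epsilon that mainly copies the leading strand, ranged from 5.23 TPM in hypoxia to 10.3 TPM in glucose depletion. Pole2, its accessory subunit, was 10.4 TPM in the control, 13.5 in glucose depletion, 6.65 in glutamine depletion, 8.68 in osmotic stress, 5.50 in ER stress, 8.08 in oxidative stress and 9.47 TPM in hypoxia. In glutamine depletion Pold1 and Pole2 were lower, with log2 changes of -0.90 and -0.57, while Pole was at 0.03.

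Lig1, the ligase that seals Okazaki fragments, was 30.1 TPM in the control, 37.5 in glucose depletion, 26.7 in glutamine depletion, 37.8 in osmotic stress, 11.5 in ER stress, 27.7 in oxidative stress and 22.5 TPM in hypoxia. The ER stress library was below all others. Fen1, the flap endonuclease that trims the fragments before ligation, ranged only from 16.4 TPM in hypoxia to 25.3 TPM in the control, and its log2 change in ER stress was -0.22 against -1.32 for Lig1.

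Of the nucleotide supply enzymes, Tk1 had the widest range of all members on the log2(TPM + 1) scale, 2.26. This scale narrows the range of low genes such as Gins3, so the ranking depends on the pseudocount. Tk1 (chr11:117815526-117826092, minus strand, GRCm38), the cytosolic thymidine kinase that salvages thymidine, was 56.6 TPM in the control, 51.5 in glucose depletion, 35.0 in glutamine depletion, 40.2 in osmotic stress, 11.0 in ER stress, 32.3 in oxidative stress and 39.1 TPM in hypoxia. The ER stress library was far below the next lowest, which was oxidative stress. Tyms, thymidylate synthase, which makes thymidylate de novo, ranged from 45.6 TPM in ER stress to 79.6 TPM in glucose depletion. The ratio of Tk1 to Tyms was 0.823 in the control and 0.241 in ER stress, and 0.540 to 0.769 in the other conditions.

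Ribonucleotide reductase, which makes deoxyribonucleotides, has a large subunit (Rrm1) and a small one whose S-phase form is Rrm2. Rrm1 was 117 TPM in the control, 127 in glucose depletion, 93.1 in glutamine depletion, 102 in osmotic stress, 45.4 in ER stress, 79.3 in oxidative stress and 92.3 TPM in hypoxia. Rrm2, the highest member in all libraries but hypoxia, was 190.4 TPM in the control, 103 TPM in ER stress and 115 TPM in hypoxia, and at least 171.8 TPM in the other conditions. The ratio of Rrm2 to Rrm1 was 1.63 in the control, 1.499 in glucose depletion, 2.20 in glutamine depletion, 1.804 in osmotic stress, 2.27 in ER stress, 2.17 in oxidative stress and 1.25 in hypoxia. Both were lower in ER stress, Rrm1 by more, whereas in hypoxia Rrm2 was lower by more, with log2 changes of -0.34 for Rrm1 and -0.72 for Rrm2. Dut, the dUTPase that keeps uracil out of DNA, ranged from 47.2 TPM in oxidative stress to 91.6 TPM in glucose depletion and was 72.1 TPM in ER stress, with 78.9 TPM in the control.

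The 3 genes that act on chromatin behind the fork were lower in 5 of the 6 conditions, with medians from -0.39 in osmotic stress to -1.07 in ER stress. Uhrf1, which recognizes hemimethylated DNA and recruits the maintenance DNA methyltransferase, was 43.7 TPM in the control, 54.5 in glucose depletion, 33.1 in glutamine depletion, 26.2 in osmotic stress, 21.9 in ER stress, 22.4 in oxidative stress and 36.4 TPM in hypoxia. Chaf1a and Chaf1b, subunits of the histone chaperone CAF-1, were 22.8 and 26.0 TPM in the control and 10.3 and 10.5 TPM in ER stress. They ranged from 10.3 to 22.9 TPM and from 10.5 to 26.0 TPM. In oxidative stress Chaf1a and Uhrf1 were among the 3 lowest changes of all members.

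E2f1, an activating E2F factor, was 23.1 TPM in the control, 19.9 in glucose depletion, 17.9 in glutamine depletion, 25.4 in osmotic stress, 17.2 in ER stress, 15.8 in oxidative stress and 32.6 TPM in hypoxia. It was highest in hypoxia, where 40 of the 43 members were below the control. E2f2, the other activating factor in the list, ranged from 0.153 TPM in oxidative stress to 0.715 TPM in glucose depletion, too low for its changes to be read.

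Several members share exon bases with a gene on the other strand, and those with more than 10% are named here because their levels may hold reads of the partner. They are Fen1 (78.8% with Gm10143), Gins2 (67.3% with Gse1), Chaf1a (52.5% with Ubxn6), Rfc2 (15.1% with Lat2), Rfc4 (12.7% with Eif4a2), Orc1 (10.8% with Gm12743) and Rfc5 (10.7% with Wsb2). Gm10143, Lat2 and Gm12743 were at most 1.35 TPM in any library. Gse1 was 11.6 TPM in the control, 19.7 TPM in glutamine depletion, 21.8 TPM in oxidative stress and 5.76 TPM in ER stress. Gins2 was below the control in each of these conditions. Ubxn6 was 64.6 TPM in ER stress, with 48.7 TPM in the control, and there Chaf1a was lower. Eif4a2 was 297 TPM in ER stress, with 218 TPM in the control, and there Rfc4 was lower. The part of these overlaps in the levels of the members was not tested.

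Of 38 other replication genes, all of which passed the filter, 0 in glucose depletion, 2 in glutamine depletion, 4 in osmotic stress, 3 in ER stress, 2 in oxidative stress and 1 in hypoxia were lower by more than 2-fold. In ER stress 3 were also higher by more than 2-fold and in the other conditions none was. Their medians, in that order of conditions, were 0.06, -0.22, -0.32, -0.25, -0.37 and -0.26. The 3 that were higher in ER stress were the origin recognition subunit Orc2 (27.1 TPM in the control, 67.4 in ER stress), the polymerase delta subunit Pold2 (31.4 and 87.6 TPM) and the helicase Recql4 (3.00 and 15.5 TPM). Of all genes, 2.41%, 3.21%, 8.76%, 11.0%, 4.85% and 2.64% were lower by more than 2-fold, in the same order of conditions. In ER stress 8.6% of all genes were higher by that much, and 1.83% to 3.94% in the other conditions. The 3 lower and 3 higher of the 38 genes in ER stress were thus near the shares of all genes. The list was farthest from 0 in oxidative stress, with Mcm8 (-1.18), Chtf18 (-1.01) and Dscc1 (-0.87) as its 3 genes farthest from 0.

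The median of the 24 mitosis genes was below that of the replication members in every condition but hypoxia. By more than 2-fold, 0 were lower in glucose depletion, 0 in glutamine depletion, 3 in osmotic stress, 15 in ER stress, 7 in oxidative stress and 0 in hypoxia, and none was higher in any condition. Their medians, in that order, were -0.04, -0.43, -0.65, -1.09, -0.73 and -0.19. Of all genes, 2.41%, 3.21%, 8.76%, 11.0%, 4.85% and 2.64% were lower by more than 2-fold, in the same order. The 3 mitosis genes farthest from 0 in ER stress were Nusap1 (-1.79), Prc1 (-1.53) and Kif20a (-1.48), which act on spindle microtubules. In hypoxia the order was the other way, with a median of -0.40 for the replication members and -0.19 for the mitosis genes.

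The 19 G1/S cyclins, kinases and inhibitors had medians of -0.12, -0.25, -0.18, -0.63, -0.29 and 0.07 in the same order of conditions. By more than 2-fold, 0, 1, 1, 6, 1 and 0 of them were lower and none was higher. The shares of all genes lower by that much were 2.41%, 3.21%, 8.76%, 11.0%, 4.85% and 2.64%. In ER stress Ccne1, the cyclin E that acts before S phase, was lowest (-1.35), followed by the kinase inhibitors Cdkn2d (-1.31) and Cdkn2c (-1.25). The inhibitors Cdkn1c (-1.07) and Cdkn2b (-0.77) were lower as well, while Cdkn1a (-0.04), Cdkn1b (-0.12) and Cdkn2a (-0.29) were nearer to the control. Thus a promoter of S-phase entry and some, but not all, inhibitors of the kinases were clearly lower there.

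The 16 other E2F, pocket protein and MuvB genes had medians of -0.01, -0.09, -0.18, -0.06, -0.35 and -0.31. By more than 2-fold, 0, 0, 1, 1, 0 and 0 of them were lower and 1, in ER stress, was higher. The shares of all genes lower by that much were 2.41%, 3.21%, 8.76%, 11.0%, 4.85% and 2.64%, and 8.6% were higher in ER stress. In oxidative stress, where the list was farthest from 0, its 3 genes farthest from 0 were the pocket protein Rbl2 (-0.64) and the MuvB subunits Lin52 (-0.58) and Lin54 (0.44). In ER stress the median of these regulators was nearer to the control than that of the members.

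Of 18 homologous recombination and fork repair genes, 16 passed the filter, with medians of -0.04, -0.53, -0.41, -0.54, -0.64 and -0.30. By more than 2-fold, 0, 0, 3, 4, 3 and 2 of them were lower and none was higher. The shares of all genes lower by that much were 2.41%, 3.21%, 8.76%, 11.0%, 4.85% and 2.64%. The 3 genes of the list farthest from 0 in oxidative stress were the mismatch repair gene Msh6 (-1.12), the exonuclease Exo1 (-1.03) and Brca2 (-1.03).

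The 24 other nucleotide synthesis genes parted from the members in ER stress, with a median of 0.26 while the 5 nucleotide supply members were at -0.88. Their medians were 0.00, -0.36, -0.25, 0.26, -0.39 and -0.50. By more than 2-fold, 0, 0, 0, 1, 0 and 0 of them were lower and 0, 0, 0, 3, 0 and 0 higher. The shares of all genes lower by that much were 2.41%, 3.21%, 8.76%, 11.0%, 4.85% and 2.64%, and 8.6% were higher in ER stress. Shmt2, the mitochondrial serine hydroxymethyltransferase, was 369 TPM in ER stress, with 123 TPM in the control. In hypoxia, where the list was farthest from 0, Mthfd1 (-0.89), Ppat (-0.84) and Adsl (-0.71) were farthest from 0, all of them enzymes of purine or one-carbon synthesis.

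**Figure D4:**
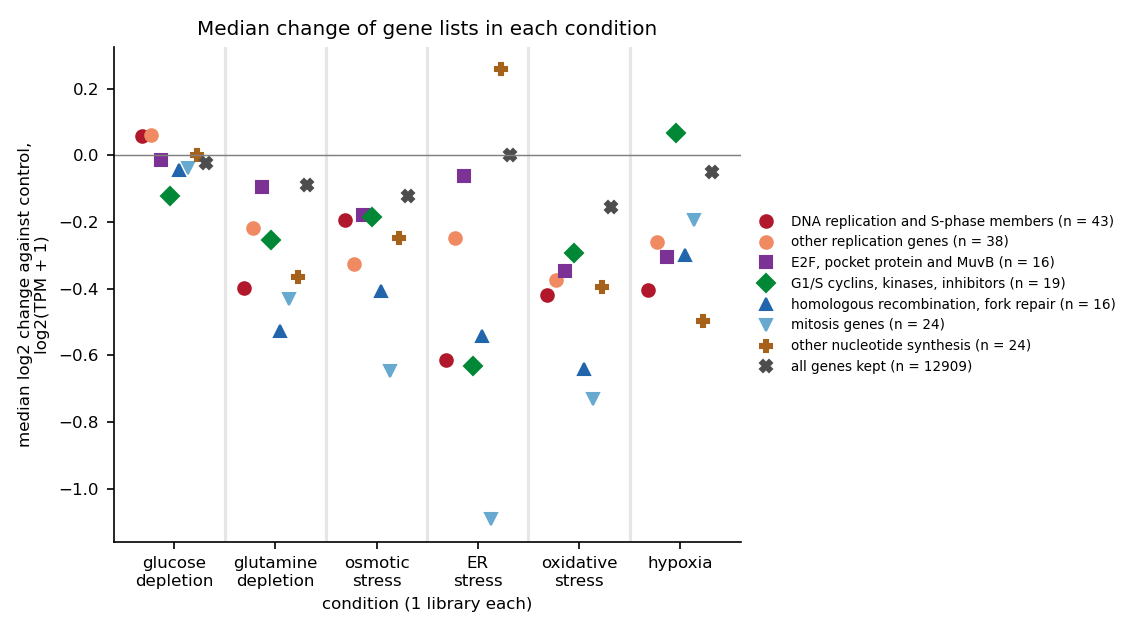
Each symbol is the median log2 change, on the log2(TPM + 1) scale against the control library, over the genes of a list that passed the filter, for the condition on the x axis. In ER stress the mitosis genes are lowest at -1.09, the members are at -0.61 and the other nucleotide synthesis genes are at 0.26, whereas in glucose depletion the medians lie between -0.12 and 0.06.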

How the data were processed

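RNA-seq of MEFs was made by the authors from stranded mRNA libraries with paired reads. Per the submitters' processing notes kallisto 0.43.1 was used with GRCm38, and the authors deposited TPM summed over the Ensembl cDNA transcripts of each gene. The deposited TPM of each library sum to 1000000 and hold no counts, so a share can be lower because other genes are higher. Kallisto was run at default settings, which make no use of strand.

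Samples were grouped by the treatment in their labels, with 1 library per group. From the deposited TPM, log2(TPM + 1) was taken and the control subtracted, with 1 TPM added and 2-fold counted as in the study's methods. A gene was kept if it averaged 2 TPM or more across the 7 libraries. With 1 library per group no test was made. Counts and medians of members were set beside those of all genes kept. The members and lists were chosen with earlier results of these data known. Every member is named with its range. In each condition the members past 2-fold are named, or the 3 highest and 3 lowest changes where none is. Mcm2, Pcna and the member with the widest log2 range of each role are given in every library. Of other lists, the 3 genes farthest from 0 are named in the condition where the median is farthest from 0. Tubb3, Gmnn, Cdt1, Pola2, Rrm1, Orc2, Pold2, Recql4, Shmt2 and Ufd1 were singled out after their values were seen. Cdkn1a, Cdkn1b, Cdkn1c, Cdkn2a and Cdkn2b were named so that every Cdkn gene of the G1/S list is given.

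Locations and exon overlaps were taken by Ensembl identifier from GENCODE M21 (GRCm38), and promoter windows from RefSeq on GRCm38.p6, matched by symbol. The printed stretches hold up to 30 bases on either side of a match. Alternatives were pseudocounts of 0.1 and 5 TPM, no filter or an average of 10 TPM or more, centering on the all-gene median, removal of the 37 mitochondrially encoded genes, a threshold of 1.5-fold and the glucose depletion library as the reference. Only the log2 changes and the counting past 2-fold were tested on simulated libraries, with known fold changes and little noise. The other steps were not simulated. Scripts ran under Python 3.11.15 with pandas 2.3.3, numpy 2.4.6 and matplotlib 3.10.9.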

Additional observations from a re-analysis of the deposited data

How the results depend on the processing

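All 41 alternative medians kept the sign of the value reported, and 38 moved by no more than 0.1. Of the alternative counts of members past 2-fold, 59 were 0 where the reported count was 0, which says nothing of stability, and of the other 35 only 13 were within 1.5 times the reported count. A threshold of 1.5-fold changed the counts most, with 11 members lower in glutamine depletion, 3 in osmotic stress, 23 in ER stress, 12 in oxidative stress and 10 in hypoxia, and with 1 member higher in osmotic stress, 1 in ER stress and 1 in oxidative stress. With a pseudocount of 5 TPM the members lower by more than 2-fold were 0 in glutamine depletion, 0 in osmotic stress and 3 in ER stress. With a pseudocount of 0.1 TPM they were 2 in osmotic stress and 1 in oxidative stress, and 1 member was higher in ER stress. With a mean of at least 10 TPM, 0 members were lower in osmotic stress, since Gins3 was below that level. Centering on the median of all genes left 0 members lower in glutamine depletion, gave 1 higher in osmotic stress, and moved the medians to -0.0733 in osmotic stress and -0.26 in oxidative stress. With the glucose depletion library as the reference, 2 members were lower in glutamine depletion, 2 in osmotic stress, 1 in oxidative stress and 2 in hypoxia, 1 was higher in osmotic stress, and the median in hypoxia was -0.54. Beyond what the construction of each alternative shows, the cause was not tested. Removal of mitochondrially encoded genes and no filter changed none of these counts or medians beyond those limits.

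No paired analysis was possible because each group was 1 library and no result came from a test. Without replicates or read counts, neither the spread between cultures nor counting error can be given, which limits most the genes of low level, such as Gins3, Cdc6 and E2f2. The treatments lasted 3 or 10 h and the conditions share 1 control library, so an odd value in that library would enter every comparison.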
